A study of Homo sapiens with 17 samples.

Results

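SOCS2 (ENSG00000120833) and RP11-887P2.1 (ENSG00000246985) are neighbouring genes of chromosome 12 that overlap on opposite strands. Current annotation names the second gene SOCS2-AS1, a long noncoding RNA. They were taken by symbol from the 4 tables of differentially expressed genes that the authors deposited, and make up 2 of the 1400 genes listed in at least 1 table. The pair was chosen by its presence in those tables, so its decrease after knockdown is described below without a test. Both genes were lower after knockdown of MED25 or of ETV4, SOCS2 in all 4 comparisons and RP11-887P2.1 in 3.

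The RNA came from PC3, a line of human prostate cancer cells, taken on day 7 of infection with virus that expressed a short hairpin RNA (shRNA). The groups were lentiviral MED25 shRNA A, lentiviral MED25 shRNA B, retroviral ETV4 shRNA A and retroviral ETV4 shRNA B, with 3 libraries each, and are named by target and letter from here on, as in MED25 A. Controls were 3 lentiviral libraries with a luciferase shRNA and 2 retroviral libraries with a control shRNA, per the labels, whereas the series design text calls the control an empty vector. MED25 is a subunit of Mediator, the complex that links transcription factors to RNA polymerase II, and ETV4 is an ETS-family transcription factor; the question was which genes depend on both. Every group is the same infected cell line, and no label says whether replicates were separate cultures. Depth and replicate spread are unknown, as values of single libraries were not analysed here, and for the same reason the identity of the cells could not be checked against marker levels.

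SOCS2 belongs to the suppressors of cytokine signalling. Cytokine receptors activate JAK kinases, which phosphorylate STAT transcription factors, and STATs induce SOCS genes, whose proteins then dampen the receptor. SOCS2 protein carries an SH2 domain that binds phosphorylated receptors and a SOCS box that recruits elongins and a cullin ubiquitin ligase, and it is best known for restraining growth hormone signalling.

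In GENCODE 29, an annotation on a later genome build than the one the reads were aligned to, the spans of the genes overlap by 1955 bases at their 5′ ends. Merged over transcripts, 277 bases are exonic in both, in 2 stretches of 75 and 202 bases. They make up 4.09% of the 6776 exonic bases of SOCS2 and 7.26% of the 3816 exonic bases of RP11-887P2.1. These bases fall in first exons of 4 of the 12 annotated SOCS2 transcripts and of 3 of the 4 antisense transcripts, and 0 of them are coding. No coding base of SOCS2 lies within the span of the antisense gene.

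**Figure D1:**
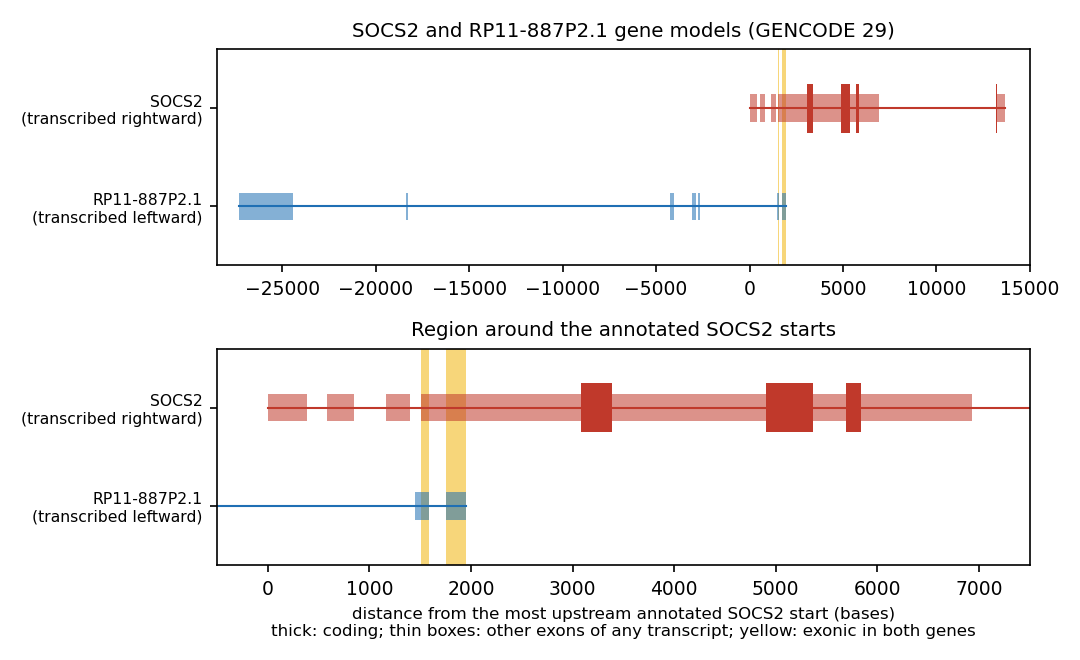
Exons of SOCS2 and RP11-887P2.1 merged over the transcripts of GENCODE 29, against the distance in bases from the most upstream annotated SOCS2 start, for the whole locus (top) and around the SOCS2 starts (bottom). The yellow bands are the 2 stretches of 75 and 202 bases that are exonic in both genes, and they lie upstream of the coding blocks (thick) of SOCS2.

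Sequences of 3 kinds at this locus show what the counts could and could not separate. The first is a 30-base piece of the longer shared stretch, as each transcript of GENCODE 29 reads it 5′ to 3′. The lines are exact reverse complements, so a read from here cannot be assigned to a gene unless the strand is kept:
SOCS2-206, bases 306 to 335: gcaatgatcctcgaggcttttgtgtgccct
SOCS2-AS1-201, bases 74 to 103: agggcacacaaaagcctcgaggatcattgc
The second is the start of the SOCS2 coding sequence, 139 bases up to the end of the first coding exon, with the start codon in capitals; no antisense exon covers it:
SOCS2-201, bases 599 to 737: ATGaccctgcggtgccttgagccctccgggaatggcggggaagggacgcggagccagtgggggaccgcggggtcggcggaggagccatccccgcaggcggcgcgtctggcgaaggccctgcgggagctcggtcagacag
The third is the 227-base exon that all 4 annotated antisense transcripts contain and that no SOCS2 exon covers:
SOCS2-AS1-201, bases 203 to 429: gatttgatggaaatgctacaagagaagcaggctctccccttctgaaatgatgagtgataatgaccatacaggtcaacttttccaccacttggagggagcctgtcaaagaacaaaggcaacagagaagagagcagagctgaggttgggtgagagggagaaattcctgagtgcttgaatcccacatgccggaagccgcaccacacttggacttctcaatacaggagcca
Of the exonic bases of RP11-887P2.1, 92.7% lie outside SOCS2 exons. Whether counting used strand, and which gene models it used, is stated in none of the sources used here, so the values of both genes are uncertain to the extent that reads fell in the shared bases. SOCS2 also has 2 processed pseudogene copies, SOCS2P1 and SOCS2P2, whose sequences aligned to the SOCS2-201 transcript with 79.4% and 78.6% identity; neither was listed in any table.

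The authors' measure of change was a log2 ratio, given here as knockdown over control. Each table lists genes lowered at least 1.5-fold, with a score for the adjusted p, for which the authors state no scale in the sources used here. The score started just above 20; on a scale of minus 10 times the log10 this would equal an adjusted p of 0.01. The tables carry no error per gene. In bulk RNA, fewer expressing cells and less RNA per cell cannot be told apart, and genes that rose were not analysed here. A gene that is not listed has no value, and cannot be called unchanged.

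SOCS2 was lower after each knockdown, and lower in the ETV4 than in the MED25 comparisons, which also differ in virus and controls. In the authors' deposited tables it stood at −0.94 with MED25 A, −0.89 with MED25 B, −1.59 with ETV4 A and −1.21 with ETV4 B. The MED25 knockdowns thus left 52.3% and 53.8% of the control level, and the ETV4 knockdowns 33.1% and 43.4%. The values for the shRNAs of MED25 lay 0.04 apart on the log2 scale and those of ETV4 lay 0.39 apart. Neither difference was tested, since replicate values were not analysed here, and both shRNAs of a target share their control libraries.

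RP11-887P2.1 followed the same order in the 3 tables that list it. In the authors' deposited tables it was at −0.77 with MED25 B, −1.21 with ETV4 A and −1.02 with ETV4 B, or 58.8%, 43.2% and 49.5% of control. It was not listed with MED25 A. For both genes the lowest value was that of ETV4 A, followed by ETV4 B. SOCS2 was the lower of the pair in each of these 3 comparisons, by 0.13 with MED25 B, 0.38 with ETV4 A and 0.19 with ETV4 B on the log2 scale. The ETV4 comparisons share control libraries, so these differences are not independent of each other.

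**Figure D2:**
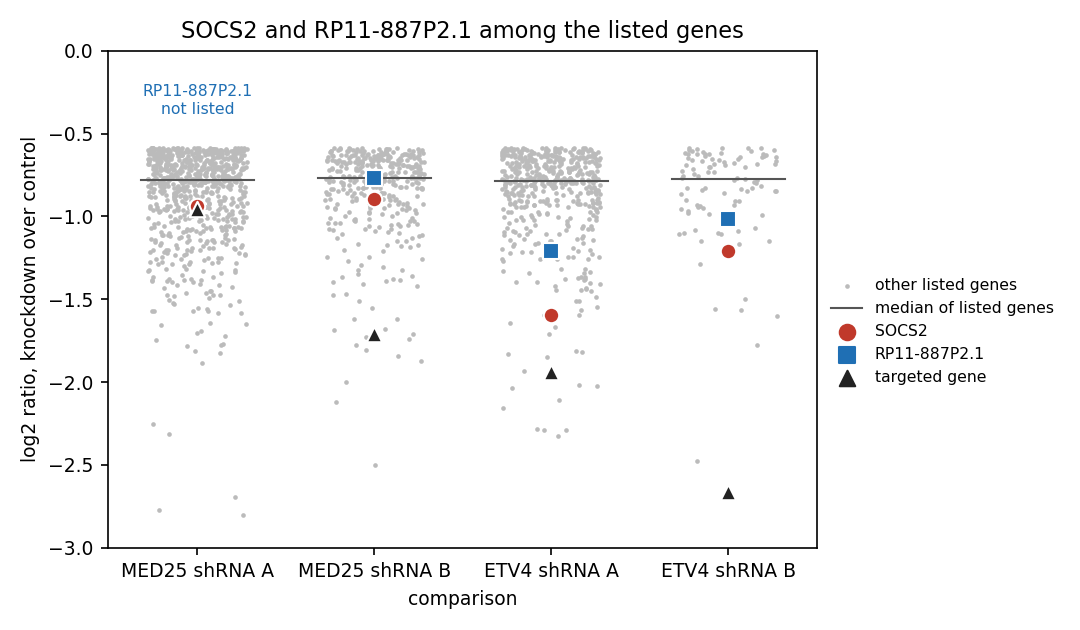
Log2 ratio of knockdown over control for every gene listed in each of the 4 comparisons (grey), with the median of the listed genes (line), SOCS2 (red circle), RP11-887P2.1 (blue square) and the targeted gene (black triangle). SOCS2 lies near −0.9 in both MED25 comparisons and at −1.59 and −1.21 in the ETV4 comparisons, with RP11-887P2.1 above it wherever it is listed.

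Listing as such was not common, and the listed genes set the scale for the size of these decreases. Of the 19951 protein-coding genes annotated, 3.44% were listed as lower with MED25 A, 1.61% with MED25 B, 2.17% with ETV4 A and 0.456% with ETV4 B. SOCS2 and RP11-887P2.1 were both lowered at least 2-fold with both ETV4 shRNAs. With MED25 shRNAs, neither of the values of SOCS2 nor the single value of RP11-887P2.1, that of MED25 B, reached that fold. Among all listed genes, 24.0% passed that fold with MED25 A, 20.1% with MED25 B, 23.2% with ETV4 A and 20.4% with ETV4 B. These shares are background for the pair, which was chosen on the same contrasts.

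By size of decrease, SOCS2 ranked 237 of 786 with MED25 A and 113 of 374 with MED25 B, the same relative place of 30.2% from the top in both. It ranked 21 of 495 with ETV4 A, or 4.24% from the top, and 9 of 98 with ETV4 B, or 9.18%. RP11-887P2.1 ranked 192 of 374 with MED25 B, close to the middle of that table. Its ranks with ETV4 A and B were 64 of 495 and 20 of 98. Among listed genes that are not protein coding, it was number 17 of 30 with MED25 B, 8 of 51 with ETV4 A and 4 of 7 with ETV4 B.

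The genes differed more in score than in size of decrease. SOCS2 scored 149 with MED25 A, 139 with MED25 B, 265 with ETV4 A and 130 with ETV4 B in the authors' deposited tables, where the median scores of listed genes were 67.6, 63.4, 63.6 and 66.7. RP11-887P2.1 scored 25.3 with MED25 B, 57.1 with ETV4 A and 22.5 with ETV4 B in the authors' deposited tables. With MED25 B and ETV4 B it therefore stood just above the minimum for listing. In the table of ETV4 B only 5 of 98 genes scored lower, and in that of MED25 B 29 of 374.

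Size and score of the antisense gene stood apart most with ETV4. With ETV4 A, 63 other genes were lowered at least as much as RP11-887P2.1, with a median score of 175, and 0 of them scored lower. With ETV4 B there were 19 such genes, with a median score of 149, and again 0 scored lower. For SOCS2, 8 of 20 and 3 of 8 genes lowered at least as much scored lower in these tables. The read counts and replicate spread behind these scores were not analysed here. With scores this near the minimum, the absence of RP11-887P2.1 from the table of MED25 A does not show that it behaved otherwise there.

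**Figure D3:**
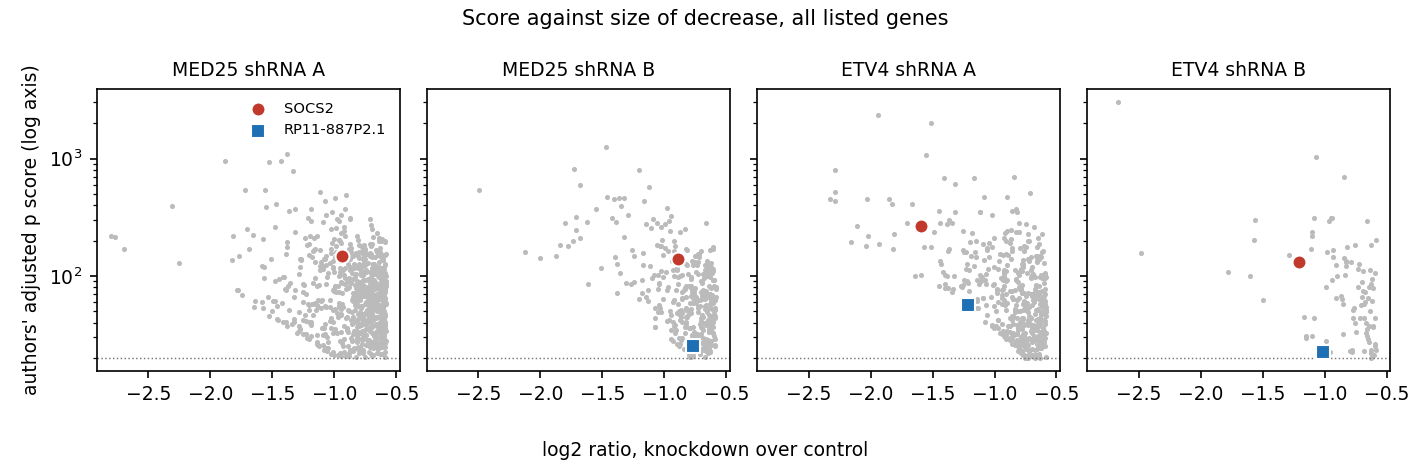
Score of the authors' adjusted p (log axis) against log2 ratio of knockdown over control, 1 panel per comparison, for all listed genes (grey), SOCS2 (red circle) and RP11-887P2.1 (blue square); the dotted line is a score of 20. RP11-887P2.1 lies on the lower edge of the points with both ETV4 shRNAs, with scores of 57.1 and 22.5, and SOCS2 lies within them at 265 and 130.

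The targeted transcripts were lowered as well, those of ETV4 more than those of MED25. The authors' deposited tables gave MED25 as −0.96 for shRNA A and −1.71 for shRNA B, and ETV4 as −1.94 for shRNA A and −2.67 for shRNA B. For each target, shRNA B lowered the target more, while SOCS2 was the lower with shRNA A, by the untested 0.04 and 0.39 given above. Across targets the order was the same for both, with target and SOCS2 lower in the ETV4 than in the MED25 comparisons. With MED25 A, SOCS2 and MED25 differed by only 0.02 on the log2 scale. Divided by the log2 ratio of the targeted gene, the log2 ratio of SOCS2 was 0.978 and 0.522 for MED25 A and B, and 0.821 and 0.452 for ETV4 A and B. On this scale the mean over the shRNAs was larger for MED25, at 0.750, than for ETV4, at 0.637, which is the opposite order from that of the log2 ratios themselves, at −0.91 and −1.40.

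Of the 10 genes listed in all 4 tables, SOCS2 alone had both ETV4 values below both MED25 values. This order was examined after the values were seen and is a description. ANK2, HEY1, NOG, RASL11A and SDC1 had both MED25 values below both ETV4 values, and the other 4 genes had neither order. Genes missing from any table were left out of this count. RP11-887P2.1, not listed with MED25 A, had both ETV4 values below that of MED25 B. The same held for COL4A6, UBE2QL1, PHEX and PADI1, genes with values near those of RP11-887P2.1, but not for TTN, another such gene. The lentiviral and retroviral comparisons used different controls, so the order joins target and virus and the contributions cannot be told apart.

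By Euclidean distance over the 4 log2 ratios, the genes most like SOCS2 among the other 9 were CDK14, HEY1, RASL11A, ANK2 and KCNK15. The kinase gene CDK14 was nearest, at a distance of 0.93, with −0.96 and −0.77 for MED25 A and B and −0.86 and −0.64 for ETV4 A and B in the authors' deposited tables. It thus resembled SOCS2 in the MED25 comparisons and was lowered less in those of ETV4. The Notch effector HEY1 was at a distance of 1.02 and the small GTPase gene RASL11A at 1.11. ANK2, an ankyrin gene, and KCNK15, a potassium channel gene, were at 1.32 and 1.37. None of these was close on the scale of the decreases themselves, which for SOCS2 ran from −0.89 to −1.59. Genes missing from any table were left out of this ranking. Among them, the arginine deiminase gene PADI1 was not listed with MED25 A. In the authors' deposited tables PADI1 was at −0.88 with MED25 B, −1.60 with ETV4 A and −1.15 with ETV4 B. SOCS2 stood at −0.89, −1.59 and −1.21 there.

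RP11-887P2.1 had closer matches in its own ranking, which covered more genes over fewer tables. Among the 19 other genes listed in its 3 tables, the type IV collagen gene COL4A6 was nearest, at a distance of 0.15, with −0.65, −1.16 and −0.94 in the authors' deposited tables of MED25 B, ETV4 A and ETV4 B. UBE2QL1, a gene of the ubiquitin-conjugating family, followed at 0.18, the giant sarcomere protein gene TTN at 0.26, the endopeptidase gene PHEX at 0.29 and the arginine deiminase gene PADI1 at 0.42. SOCS2 itself came sixth, number 6 of 19, at 0.45. Its overlapping neighbour was therefore not the gene whose values lay nearest. Distances over 3 and over 4 tables are not on the same footing, and tables of a target share controls.

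The next genes along the chromosome were mostly not listed. Of the 6 nearest protein-coding genes, 3 on each side of SOCS2, MRPL42, UBE2N and NUDT4 upstream and PLXNC1 and CEP83 downstream were in none of the tables. The exception was the nearest downstream gene, CRADD, which encodes a death-domain adaptor protein. It was at −0.61 with MED25 B, with a score of 32.7, in the authors' deposited table, and was not listed in the other 3. This value lies near the listing minimum for size, and with ETV4 A, where SOCS2 was lowest, no neighbour other than the antisense gene was listed. Of all protein-coding genes, 3.44%, 1.61%, 2.17% and 0.456% were listed, from MED25 A to ETV4 B. Such shares leave little to be seen in 6 genes, so the count does not set this locus apart.

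Some other overlapping genes on opposite strands were also listed together. By GENCODE 29, 21 such pairs occurred in at least 1 table, 13 of which share exonic bases, and 9 had a partner that is not protein coding. SOCS2 with RP11-887P2.1 and CDK14 with AC002456.2 were the 2 pairs listed together in 3 or more tables. Among listed genes with an annotated opposite-strand partner, the share whose partner was also listed ran from 4.35% with MED25 A, through 5.92% with MED25 B and 7.22% with ETV4 A, to 8.16% with ETV4 B. SOCS2 and RP11-887P2.1, chosen for being listed, are themselves counted as genes with a listed partner for each shRNA except MED25 A. With MED25 A, SOCS2 counts only among the genes with an annotated partner. With ETV4 B the share is 4 of 49 genes, which are this pair and that of CDK14, so the rise cannot be read apart from the choice. Of all protein-coding genes, 3.44%, 1.61%, 2.17% and 0.456% were in these tables; partners also include noncoding genes, so the shares do not cover the same kinds of gene.

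Within a pair, values could lie close together or far apart. SOCS2 and RP11-887P2.1, with 277 shared exonic bases, differed by 0.13 to 0.38 on the log2 scale. CDK14 and AC002456.2 share 0 exonic bases and differed by 0.92 to 1.35, with the antisense gene the lower in all 4 tables. PRSS23, a protease gene, and FZD4, a Wnt receptor gene, share 1399 bases and differed by 0.34 and 0.46 in size in the tables of MED25 A and ETV4 A. PRSS23 and its antisense gene RP11-736K20.5 share 0 and differed by 0.12 and 0.27. MTHFD2 and SLC4A5, sharing 1324 bases, differed by 0.74 with MED25 A, and MARS and DDIT3, sharing 355, by 0.18. Among these pairs the size of the difference did not follow the order of shared exonic length. Both genes of a pair had to pass the minimum for listing, and the part played by reads from shared bases was not tested.

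Over the 9 pairs with a noncoding partner, the coding gene was the lower one in 5 of 15 values counted over tables. The 3 values of SOCS2 are among these 5, and the 4 values of CDK14 are among the others. Values of the same pair in comparisons that share controls are not independent of each other.

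**Figure D4:**
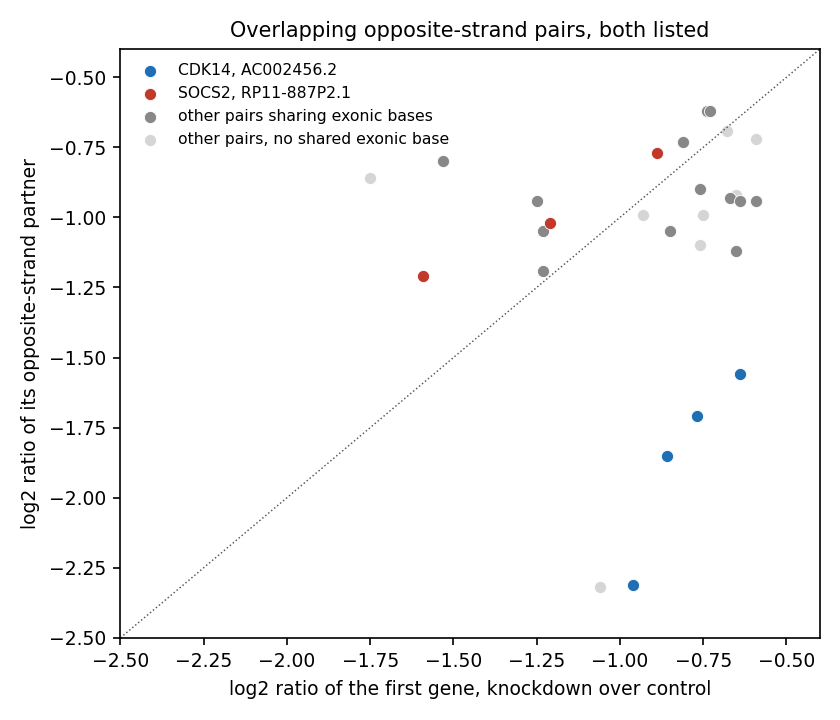
Log2 ratio of knockdown over control for both genes of each overlapping opposite-strand pair, 1 point for each table that lists both; the coding gene is on the horizontal axis where the partner is noncoding, and the dotted line marks equal values. The 3 points of SOCS2 and RP11-887P2.1 (red) lie 0.13 to 0.38 above the line, and the 4 of CDK14 and AC002456.2 (blue) lie 0.92 to 1.35 below it.

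SOCS2, chosen for being listed, was the 1 listed member of its family of 8. The other 7 members, CISH, SOCS1, SOCS3, SOCS4, SOCS5, SOCS6 and SOCS7, were in none of the 4 tables, nor were the 6 genes of the SOCS-box ubiquitin ligase or any of the 11 JAK and STAT genes. Taking SOCS family, ligase, ligand, receptor, kinase, STAT and other inhibitor genes together, 4 of the 86 genes beside SOCS2 were in at least 1 table. By table they numbered 1 with MED25 A (1.16%), 2 with MED25 B (2.33%), 2 with ETV4 A (2.33%) and 0 with ETV4 B. These shares stand beside 3.44%, 1.61%, 2.17% and 0.456% of all protein-coding genes, and with counts this small they are near that background. Many of the 86, such as receptors of blood cells, may not be expressed in PC3, which the tables do not show.

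The 4 listed pathway genes were a receptor, an inhibitor and a pair of ligands. Of 28 receptors, IL6R, the interleukin-6 receptor, was at −0.62 and −0.74 with MED25 A and B in the authors' deposited tables. Of 11 other inhibitors, PIAS4, a SUMO ligase that restrains STATs, was at −0.59 with MED25 B in the authors' deposited table. Of 23 ligands, the cytokine genes IL7 and IL15 were at −0.77 and −0.73 with ETV4 A in the authors' deposited table. None of these 4 was listed for both targets, and none reached a 2-fold decrease. Whether their decreases differ between targets was not tested.

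Among 22 genes known to be induced by STATs in other settings, 5 were listed, SOCS2 included. Without SOCS2, 3 of 21 (14.3%) were in the table of MED25 A, 2 (9.52%) in that of MED25 B, 1 (4.76%) in that of ETV4 A and 0 in that of ETV4 B, where 3.44%, 1.61%, 2.17% and 0.456% of all protein-coding genes were listed. The transcription factor gene CEBPB was at −1.06 with MED25 A and −0.98 with ETV4 A in the authors' deposited tables. MYC was at −0.70 and −0.87 with MED25 A and B, cyclin D1 (CCND1) at −0.94 with MED25 A and the AP-1 gene JUNB at −0.67 with MED25 B in the authors' deposited tables. With ETV4 B, SOCS2 was the single gene of this list in the table. The medians of the listed members, from MED25 A to ETV4 B, were −0.94, −0.87, −1.29 and −1.21, against −0.78, −0.77, −0.79 and −0.77 over all listed genes. They rest on 4, 3, 2 and 1 genes and in each case include SOCS2. Neither these medians nor the shares of the list were tested, and the background shares include genes that may not be expressed in PC3.

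Insulin and IGF signalling, the growth pathway closest to that of growth hormone, had 5 of 25 genes (20%) listed with MED25 A and 1 (4%) with MED25 B, beside 3.44% and 1.61% of all protein-coding genes. It had 0 with ETV4 A and B, where the shares of all protein-coding genes, 2.17% and 0.456%, leave little to be seen in 25 genes. The MED25 counts are small as well and were not tested. The background takes in all annotated protein-coding genes, whether expressed in PC3 or not, so it may understate the share among expressed genes. The insulin receptor substrate gene IRS2 was at −1.38 and −0.92 with MED25 A and B in the authors' deposited tables. With MED25 A the IGF-binding protein gene IGFBP4 was at −1.52, IRS1 at −0.95, the kinase gene AKT2 at −0.63 and the receptor adaptor gene GRB10 at −0.61 in the authors' deposited table; GRB10 was named beyond the limit of 4 after its value was seen. The growth hormone receptor gene GHR and IGF1 were in none of the tables.

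**Figure D5:**
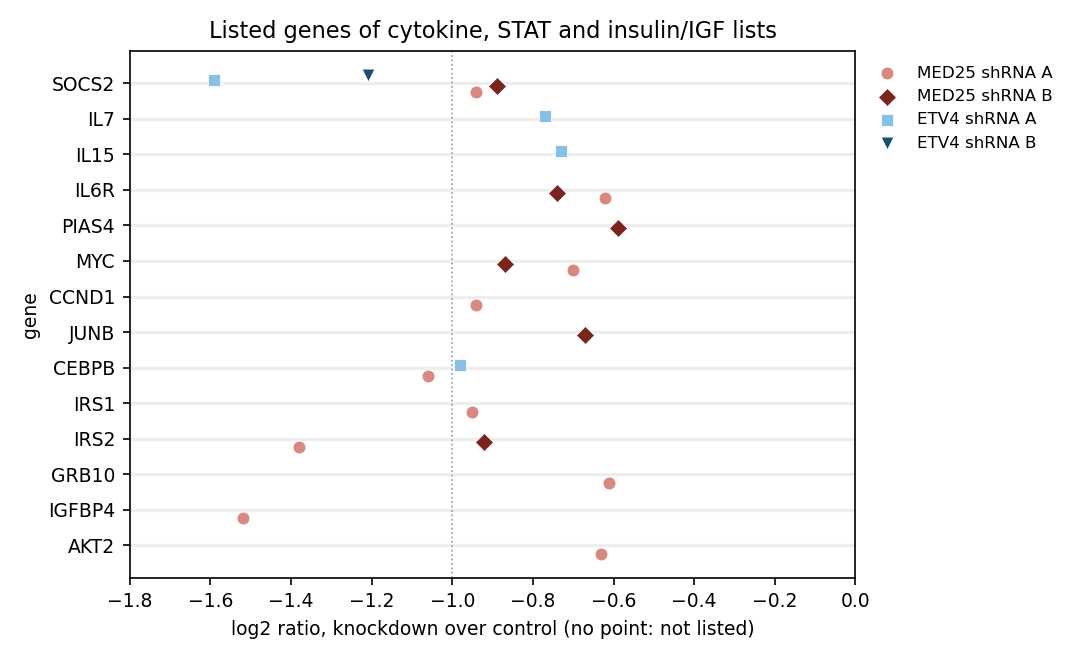
Log2 ratio of knockdown over control for SOCS2 and the listed genes of the cytokine, STAT and insulin or IGF lists, with 1 symbol per comparison; a missing symbol means that the gene was not listed, and the dotted line is a 2-fold decrease. SOCS2 has a symbol for all 4 comparisons, while the other genes have 1 or 2 each.

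Type I interferon genes, which are driven by STATs, were listed with ETV4 A, 2 of 25 (8%) beside 2.17% of all protein-coding genes. Of these, IFIH1, an RNA sensor, was at −0.70 and IFIT3 at −0.59 with ETV4 A in the authors' deposited table. There were 0 of 25 with MED25 A, MED25 B and ETV4 B, where 3.44%, 1.61% and 0.456% of all protein-coding genes were listed. These counts are small and were not tested against that background.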

How the data were processed

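RNA-seq libraries of PC3 cells (17 in 6 groups) were grouped by their titles. The submitters' processing notes name Novoalign 3.08.02 and the hg19 build. No source used here states the counting tool, its strand setting, the gene models, the scaling or the test. The authors deposited 1 table per shRNA with, per the file headers, a log2 ratio and an adjusted p for each gene. The authors deposited that adjusted p as a score of unstated scale, which served only to rank and filter.

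Ratios were read from the library numbers in the headers, with the number shared by both tables of a target taken as control. MED25 values were turned round, so that all are knockdown over control; the sign of the targeted genes helped to set this reading.

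Genes were placed in GENCODE release 29 by Ensembl identifier, for gene type, exon overlap, neighbours and transcript sequences; all 167 genes of the 10 lists matched a gene name table. The result of 1 list is not reported here. Shares of listed genes use all 19951 annotated protein-coding genes. Pseudogenes were aligned with blastn 2.17.0+. Computation used matplotlib 3.10.9, scipy 1.17.1, numpy 2.4.6 and pandas 2.3.3 under Python 3.11.15. Ranking and overlap code was tested on simulated data. No significance test was made.

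The members and lists were chosen with earlier results of these data known. Named genes are the pair, the targets, the 5 genes nearest to each member in log2 ratios, all listed genes of the 6 cytokine pathway lists, up to 4 of each other list, 3 protein-coding neighbours on each side, and 6 opposite-strand pairs, with ties broken by shared exonic length. Alternatives were a 2-fold minimum, a score of at least 50, genes of the same type, scaled distances and values relative to the target.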

Additional observations from a re-analysis of the deposited data

How the results depend on the processing

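At a minimum decrease of 2-fold, SOCS2 was in 2 tables instead of 4 and RP11-887P2.1 in 2 instead of 3. With a score of at least 50, SOCS2 stayed in 4 tables and RP11-887P2.1 in 1, that of ETV4 A. Relative places by decrease moved with that score to 41.3% for SOCS2 with MED25 B, 7.00% and 14.8% for SOCS2 with ETV4 A and B, and 21.3% for RP11-887P2.1 with ETV4 A; fewer genes are ranked there. Among listed genes that are not protein coding, RP11-887P2.1 moved to 56.7% with MED25 B and 57.1% with ETV4 B, the latter over 7 genes. At 2-fold, the STAT-regulated list and the insulin and IGF list each kept 2 genes, and the ligand, receptor, other inhibitor and interferon lists 0; at a score of 50 the ligand list had 0. The 21 opposite-strand pairs became 4 at 2-fold and 9 at a score of 50, alternatives chosen after seeing the data. The 5 genes nearest to SOCS2 were the same after scaling each table by its median. The ETV4 minus MED25 difference of SOCS2 was −0.48 in mean log2 ratio, a larger decrease with ETV4. This order was reversed when each value was divided by that of its target. The mean quotient was then larger for MED25, at 0.75, than for ETV4, at 0.637, by 0.11. No paired analysis was possible because the tables hold no values per replicate, and no replicate could be left out for the same reason. Depth per library is unknown.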
